A study of Homo sapiens with 4 samples.

Results

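DNA replication machinery genes were followed in A375, an established line of human melanoma cells with mutant, constitutively active BRAF. The 47 genes are listed by their role in copying DNA, a rule that uses no measured value. They were chosen with earlier results of these data known. All 47 were found among the 62649 genes of the count files. The 4 libraries of polyA RNA fall into 2 groups. Vemurafenib-resistant cells (2 libraries) came from A375 cells kept in vemurafenib, an inhibitor of mutant BRAF, at a concentration that was doubled every week between 0.1 and 6.4 µM, and parental A375 cells served as the control (2 libraries). Both kinds of cell were grown in RPMI-1640 with serum. Whether the drug was still present at harvest, and whether the resistant cells were 1 clone or a pool, is not stated. The protocol text shared by all libraries also mentions sorafenib and pioglitazone, but no library is labelled with either. The design text calls the replicates biological, and no label ties them to separate cultures. A p-value therefore covers no more than differences between the 2 libraries of a group, pooled in part over genes. Some of those differences may be technical.

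A cell copies its genome from many origins. In G1 phase the origin recognition complex (ORC), CDC6 and CDT1 load the MCM2 to MCM7 helicase onto DNA, a step called licensing, and geminin (GMNN) then blocks CDT1 so that no origin is licensed again. In S phase CDC45 and the GINS complex switch the helicase on, primase and polymerase alpha start each strand, and polymerases epsilon and delta extend them with the sliding clamp PCNA, while ribonucleotide reductase and thymidylate synthase supply nucleotides. Many of these genes are transcribed in G1 and S phase under E2F transcription factors, so their RNA is commonly read as a sign of how many cells of a culture are cycling. In bulk RNA, fewer cells in S phase and less RNA per cell cannot be told apart.

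Promoter windows are shown here because E2F control is what many of these genes are known to have in common. RefSeq (GRCh38.p14) gave a window of 250 bases before to 50 after the start for 41 of the 47 genes. The letters TTTCCCGC, TTTCGCGC, TTTGCCGC or TTTGGCGC, searched on both strands as forms of the E2F site, were in 20 of these 41 windows (48.8%), in 5 of 32 windows of the partner genes described further on (15.6%) and in 908 of 27305 windows of all genes (3.33%). All 4 helicase core genes with a window had such letters, and 1 of 6 origin recognition genes did. The letters CCAAT of the factor NF-Y, searched likewise, were in 24 of 41 windows (58.5%), against 9747 of 27305 (35.7%). In the windows below, 160 bases that end 1 base before the RefSeq start are written 5′ to 3′ on the gene's strand, with E2F letters in capitals.
MCM6 (helicase subunit, chr2:135876444-135876603, minus strand): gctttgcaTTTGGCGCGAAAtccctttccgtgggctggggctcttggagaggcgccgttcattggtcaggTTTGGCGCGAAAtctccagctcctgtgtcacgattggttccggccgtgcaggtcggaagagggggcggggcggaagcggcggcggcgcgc
CDT1 (licensing factor, chr16:88803629-88803788, plus strand): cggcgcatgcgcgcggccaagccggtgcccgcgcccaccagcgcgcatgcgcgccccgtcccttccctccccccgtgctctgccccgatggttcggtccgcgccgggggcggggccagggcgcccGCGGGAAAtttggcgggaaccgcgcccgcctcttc
PCNA (sliding clamp, chr20:5126623-5126782, minus strand): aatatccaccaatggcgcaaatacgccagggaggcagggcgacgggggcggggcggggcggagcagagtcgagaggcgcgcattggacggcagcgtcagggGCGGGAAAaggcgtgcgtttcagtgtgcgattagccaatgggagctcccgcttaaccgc
TYMS (thymidylate synthase, chr18:657493-657652, plus strand): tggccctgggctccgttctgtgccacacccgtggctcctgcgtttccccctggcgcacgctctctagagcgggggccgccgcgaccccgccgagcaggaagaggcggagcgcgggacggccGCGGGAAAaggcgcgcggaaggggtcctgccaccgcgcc
The MCM6 window holds 4 matches, as 2 runs in which a match on each strand overlaps the other, and the other 3 windows hold 1 match each. A match is a description of the letters and not a shown binding site. The absence of a match does not show that a window holds no site.

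Counts assigned to genes totalled between 68022689 and 87178097 per library. Every count of control replicate 1 was an even number, and an alternative that halved them is given in the closing section. Levels are library-scaled counts (CPM) adjusted with TMM factors, and fold changes are fitted by edgeR as resistant over control on the log2 scale. The melanoma identity gene SOX10 (969 and 864 CPM in resistant cells, against 704 and 1150 CPM in controls) was abundant, whereas the pigment genes TYR and DCT reached at most 0.208 and 0.279 CPM in any library. The 10 melanoma markers summed to 3210 and 2920 CPM in resistant cells and 1540 and 2750 CPM in controls, most of the difference being in CSPG4, with 1790 and 1640 CPM in resistant cells, against 470 and 1120 CPM in controls. MITF had 12.3 and 23.4 CPM in resistant cells, against 42.2 and 22.8 CPM in controls, with groups that overlap. Control replicate 1, the library in which most replication genes were highest, was the lowest for CSPG4 and the highest for MITF, and values without it are given beside the results. The summed level of 5 fibroblast markers was 11.7 and 10.4 CPM in resistant cells and 14.9 and 11.1 CPM in controls, that of 5 blood cell markers was 1.43 and 1.00 CPM, against 0.782 and 1.77 CPM, and that of 3 endothelial markers was 3.01 and 2.30 CPM, against 3.47 and 3.12 CPM. Of 5 keratinocyte markers, summing to 58.5 and 89.5 CPM in resistant cells and 49.2 and 62.8 CPM in controls, KRT10 gave 57.7 and 89.1 CPM, against 47.5 and 60.2 CPM. KRT14 was lower in resistant cells, with 0.309 and 0.314 CPM in resistant cells, against 1.62 and 2.08 CPM in controls (-2.56 ± 0.387, edgeR adjusted p = 0.0355).

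None of the 47 replication genes passed the edgeR quasi-likelihood test over all genes (Benjamini-Hochberg adjusted p from 0.135 to 0.995, threshold 0.05). Over all 24961 genes tested, 0.577% were called higher and 0.513% lower in resistant cells. All 47 passed the filter on low counts, with at least 421 counts in each library, so none was left out of the test. A p that misses the threshold does not show that a gene did not differ. By the unadjusted p, 5 genes were below 0.05, all of them lower in resistant cells (RRM2, CDT1, TYMS, RRM1 and RPA3), against a background of 7.32% lower and 6.14% higher, and the 5 are 10.6% of the 47, a share near the background. DESeq2 called 1 gene, RRM2, and limma voom called 0. The fitted fold change was negative for 39 genes and positive for 8, with a median of -0.27, whereas the median over all genes tested was 0.006. With 95% intervals from the edgeR standard errors, 31 of the 47 genes excluded a change of 2-fold in either direction, and the lower bound of the other 16 lay beyond a 2-fold decrease.

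**Figure D1:**
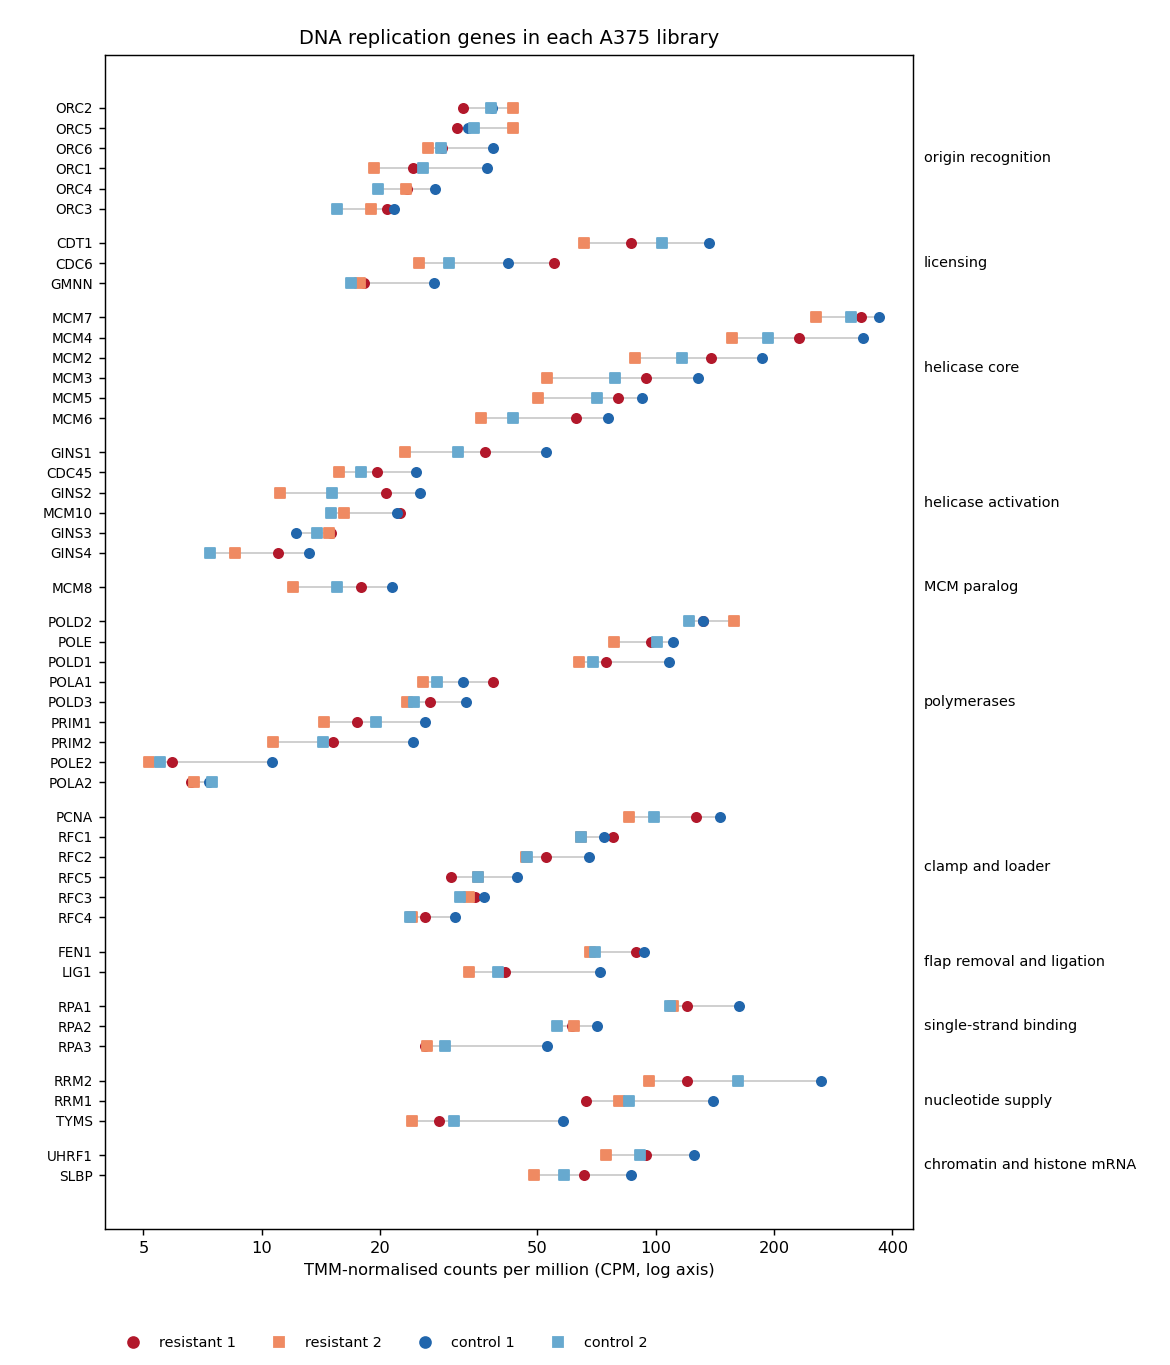
Level of each of the 47 replication genes in each library, in TMM-normalised CPM on a log axis, grouped by role (circles for replicates 1, squares for replicates 2, red for resistant and blue for control). Control replicate 1 is the highest point for 38 genes, and within the helicase core the 2 circles lie above the 2 squares for each gene.

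For most of these genes the level went with the library more than with the group. Control replicate 1 was the highest of the 4 libraries for 38 of the 47 genes, where it was highest for 36.7% of 11643 genes that averaged 5 CPM or more, and resistant replicate 2 was the lowest for 29 genes (19.5% of those 11643). For 32 of the 47 genes (68.1%) both libraries numbered 1 lay above both libraries numbered 2, and for 1 gene, ORC5, the reverse held. This split was looked at after the values were seen. Over all genes tested, replicates 1 were above replicates 2 in 12.7% and the reverse held in 13.0%. Resistant and control libraries did not overlap for 10 genes that were lower in resistant cells (21.3% of the 47, background 22.2%) and for 1 that was higher (background 22.4%), so the share of lower genes was that of the background. Resistant replicate 1 was above control replicate 2 for 35 genes, and resistant replicate 2 was above it for 13.

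**Figure D2:**
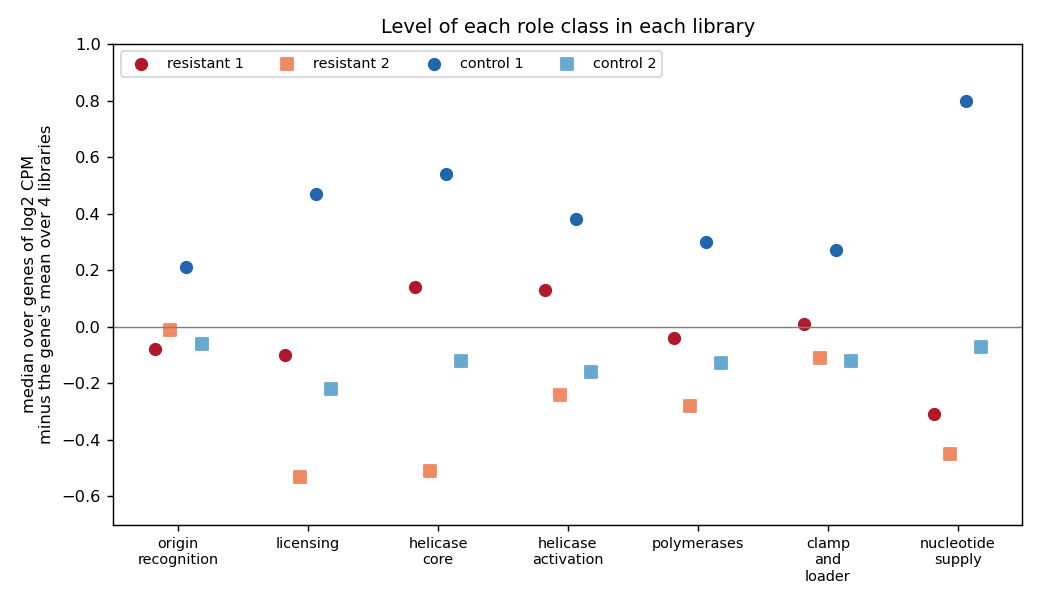
Median over the genes of each role class of log2 CPM minus the gene's mean over the 4 libraries, for each library. In the helicase core the values are 0.14 and -0.51 in resistant replicates 1 and 2 and 0.54 and -0.12 in control replicates 1 and 2, and in nucleotide supply they are -0.31 and -0.45 in resistant replicates and 0.80 and -0.07 in controls.

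Origin recognition genes had a median log2 fold change of -0.02, which was 0.02 with upper quartile factors. ORC1, the subunit whose level rises and falls with the cell cycle, had 24.2 and 19.3 CPM in resistant replicates 1 and 2, against 37.3 and 25.7 CPM in control replicates 1 and 2. Both resistant libraries lay below both controls, and the log2 fold change was -0.53 ± 0.235 (± SE as throughout; edgeR adjusted p = 0.383). ORC5, a core subunit of the complex, had 31.3 and 43.4 CPM in resistant cells, against 33.4 and 34.5 CPM in controls, the highest fold change of the class (0.14 ± 0.204). ORC2, ORC3 and ORC4 had log2 fold changes of -0.01, 0.10 and -0.03, and ORC6 one of -0.28, each with overlapping groups. Per length (RPKM, CPM divided by kilobases of exon), ORC1 made up 21.5% and 16.0% of the sum of the 6 ORC genes in resistant cells, against 26.6% and 22.5% in controls. ORC5 was above ORC1 on this scale in both resistant libraries and in control replicate 2, and below it in control replicate 1.

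The licensing factors had fold changes of both signs (median -0.30). CDT1, which brings the helicase to ORC, had 86.5 and 65.8 CPM in resistant replicates 1 and 2, against 137 and 104 CPM in control replicates 1 and 2. The groups did not overlap, and the log2 fold change was -0.66 ± 0.212 (unadjusted p = 0.0147, edgeR adjusted p = 0.211, 95% interval -1.16 to -0.17). CDC6, the ATPase that loads the helicase with ORC, had 55.3 and 25.1 CPM in resistant cells, against 42.3 and 29.9 CPM in controls. Its highest and lowest libraries were both resistant, and its log2 fold change of 0.16 ± 0.354 had the largest SE of the 47 genes. Without resistant replicate 1 the fold change of CDC6 was -0.52, and without resistant replicate 2 it was 0.62. GMNN, the inhibitor of CDT1, had 18.2 and 17.7 CPM in resistant cells, against 27.4 and 16.8 CPM in controls, with 3 libraries close together and control replicate 1 above them. Per kilobase of exon, CDT1 exceeded GMNN 4.26-fold and 3.34-fold in the resistant libraries, against 4.48-fold and 5.57-fold in the controls. CDC6 stood at 0.332 and 0.198 of CDT1 in resistant cells and at 0.160 and 0.149 in controls, so this ratio was higher in both resistant libraries. With 2 libraries a group, an exact permutation test of such a ratio cannot give a two-sided p below 0.333.

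All 6 helicase core genes had negative fold changes, between -0.48 and -0.21 (median -0.37), and none had an unadjusted p below 0.05. MCM2, which has the best known docking surface for histones in the ring, had 138 and 88.8 CPM in resistant replicates 1 and 2, against 186 and 117 CPM in control replicates 1 and 2. MCM3 had 94.7 and 53.1 CPM in resistant cells, against 128 and 78.8 CPM in controls, the lowest fold change of the class (-0.48 ± 0.318, edgeR adjusted p = 0.587). In both genes resistant replicate 1 lay between the controls. MCM5, the partner of MCM2 at the gate through which DNA enters, had 80.5 and 50.4 CPM in resistant cells, against 92.2 and 71.2 CPM in controls. MCM7, the most abundant of the 6, had 333 and 256 CPM in resistant cells, against 370 and 314 CPM in controls, and its log2 fold change of -0.21 ± 0.199 was the smallest in size. MCM4 and MCM6, neighbours in the ring, had log2 fold changes of -0.45 and -0.27. The same order of libraries was seen in all 6 genes, with control replicate 1 highest, then resistant replicate 1, control replicate 2 and resistant replicate 2. This order held in 4.57% of those 11643 genes and in 21 of the 47 replication genes. Fold differences within a group were as large as those between groups: on the log2 scale MCM2 differed by 0.64 between the resistant libraries and by 0.67 between the controls, and MCM3 by 0.83 and 0.70.

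The encoded subunits form a ring with 1 copy of each, but their RNA was far from equal. Per kilobase of exon, MCM7 made up 41.9% and 47.4% of the summed RPKM of the 6 genes in resistant cells, against 37.7% and 45.3% in controls. MCM5 made up 6.12% and 5.62% in resistant cells and 5.66% and 6.21% in controls. MCM2, MCM3 and MCM4 each took between 11.8% and 17.6%, and MCM6 between 6.67% and 8.37%. For each of the 6 genes the shares of the 2 groups overlapped. Exon length is the union over all annotated transcripts (7268 bases for MCM5 and 4386 bases for MCM7), so these shares depend on the annotation, and 23.6% of the exonic bases of MCM2 and 8.9% of those of MCM7 overlap other genes.

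Helicase activators had a median fold change of -0.17, with 4 of 6 negative. CDC45, which bridges the helicase and the GINS complex, had 19.6 and 15.7 CPM in resistant cells, against 24.7 and 17.9 CPM in controls, with a log2 fold change of -0.27 ± 0.230 and overlapping groups. GINS1 had 36.9 and 23.1 CPM in resistant cells, against 52.8 and 31.5 CPM in controls, the lowest of the class (-0.49 ± 0.303), and GINS2 had a log2 fold change of -0.34. GINS3, another subunit of the same complex, had 15 and 14.8 CPM in resistant replicates 1 and 2, against 12.2 and 13.8 CPM in control replicates 1 and 2. It was the sole gene of the 47 with both resistant libraries above both controls, although its log2 fold change was small (0.20 ± 0.197, edgeR adjusted p = 0.748). Of its exonic bases 10.9% overlap other genes. GINS4 (-0.07) and MCM10 (0.06), a factor needed for helicase start-up, lay near zero. As a share of the summed RPKM of the 4 GINS genes, GINS3 took 18.4% and 26.8% in resistant cells and 12.4% and 21.3% in controls, so the ranges overlapped. MCM8, a relative of the core helicase that works with MCM9 in recombination, had a log2 fold change of -0.30 ± 0.264. Of its exonic bases 33.3% overlap other genes, whose reads were not counted.

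Polymerase and primase genes had a median fold change of -0.27, with 7 of 9 negative. POLA1, the catalytic subunit of polymerase alpha, had 38.7 and 25.7 CPM in resistant cells, against 32.4 and 27.8 CPM in controls, so that the resistant libraries enclosed the controls. The primase subunit genes PRIM1 and PRIM2 were among the lowest of the class. PRIM2, whose product is the large primase subunit, had 15.2 and 10.7 CPM in resistant cells, against 24.2 and 14.3 CPM in controls (-0.57 ± 0.299, edgeR adjusted p = 0.478), and without control replicate 1 its log2 fold change was -0.14. PRIM1, the catalytic subunit gene, had a log2 fold change of -0.51 ± 0.221 with groups that did not overlap (edgeR adjusted p = 0.372), and 22.2% of its exonic bases overlap other genes. POLE, the catalytic subunit of the leading-strand polymerase epsilon, had 97.2 and 78.6 CPM in resistant replicates 1 and 2, against 111 and 101 CPM in control replicates 1 and 2. Both resistant libraries were lower, by a small margin (-0.27 ± 0.178, edgeR adjusted p = 0.591). POLE2, the second subunit of epsilon, had 5.92 and 5.16 CPM in resistant cells, against 10.6 and 5.52 CPM in controls, and the level in control replicate 2 was close to the resistant ones. For polymerase delta, POLD1 (catalytic subunit) had a log2 fold change of -0.35 and POLD3 one of -0.19. POLD2, an accessory subunit, had 132 and 158 CPM in resistant cells, against 132 and 122 CPM in controls, the highest fold change among the polymerase genes (0.19 ± 0.174). POLA2, the regulatory subunit of polymerase alpha, had a log2 fold change of -0.15.

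**Figure D3:**
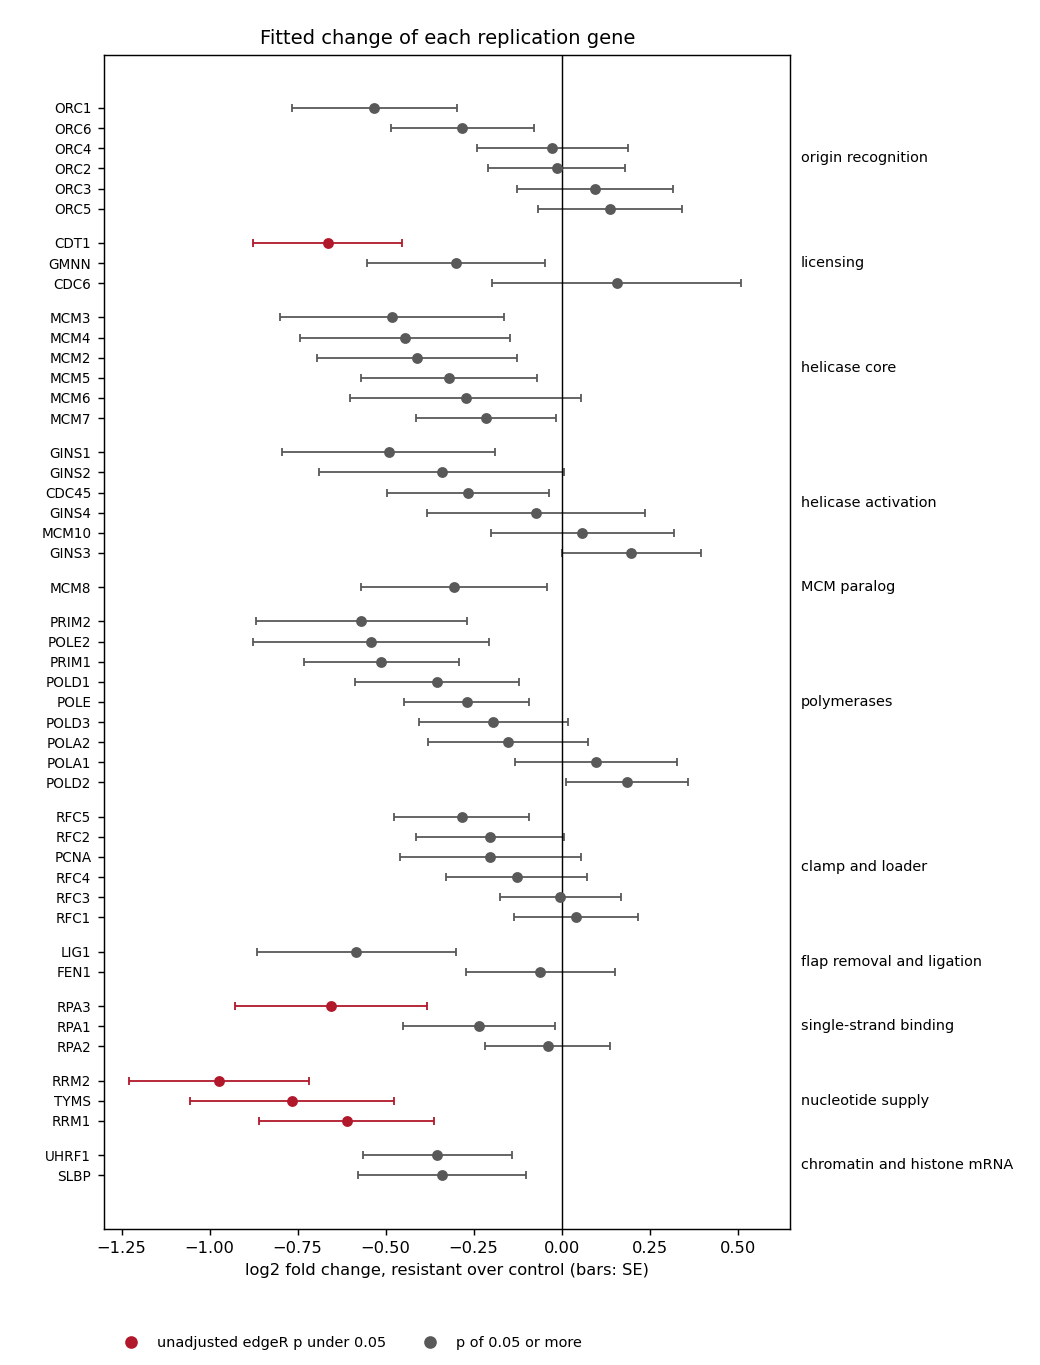
Fitted log2 fold change of each gene, resistant over control, with its standard error, grouped by role. The 5 genes in red (RRM2, TYMS, RRM1, CDT1 and RPA3) had an unadjusted edgeR p below 0.05, and none passed after adjustment over all genes.

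The clamp and its loader had a median log2 fold change of -0.17. PCNA, the sliding clamp, had 127 and 85.4 CPM in resistant replicates 1 and 2, against 146 and 99.2 CPM in control replicates 1 and 2, with wide and overlapping groups and a log2 fold change of -0.20 ± 0.257 (95% interval -0.80 to 0.39). The sign of PCNA turned without control replicate 1 (0.10) and without resistant replicate 2 (0.06). RFC1, the large subunit of the loader, had 77.8 and 64.7 CPM in resistant cells, against 73.9 and 64.7 CPM in controls (0.04 ± 0.176), and RFC5 had 30.3 and 35.4 CPM in resistant cells, against 44.5 and 35.5 CPM in controls (-0.28 ± 0.192), the lowest of the class. For RFC3 the 95% interval ran from -0.40 to 0.40, and for RFC1 from -0.37 to 0.45. RFC2 and RFC4 had log2 fold changes of -0.20 and -0.13. Of the summed RPKM of RFC1 to RFC5, RFC4 took 13.2% and 13.0% in resistant cells and 13.2% and 13.0% in controls, and RFC2 took 36.3% and 34.5% in resistant cells and 39.0% and 35.0% in controls.

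Genes of lagging-strand completion and single-strand protection each had a member with a fold change near zero and a member with a larger one. FEN1, the flap nuclease, had 89.3 and 68.0 CPM in resistant cells, against 93.7 and 70.2 CPM in controls (-0.06 ± 0.213), with interleaved groups. LIG1, the ligase that seals Okazaki fragments, had 41.4 and 33.5 CPM in resistant cells, against 72.4 and 39.8 CPM in controls (-0.58 ± 0.283, edgeR adjusted p = 0.436), where control replicate 1 alone stood apart, and the fold change was -0.09 without it. RPA3, the smallest subunit of the single-strand binding complex, had 26 and 26.2 CPM in resistant replicates 1 and 2, against 53.0 and 29.2 CPM in control replicates 1 and 2. The resistant libraries were nearly equal and below both controls (-0.66 ± 0.274, unadjusted p = 0.0453, edgeR adjusted p = 0.355), and without control replicate 1 the fold change was -0.16. RPA1 had 120 and 111 CPM in resistant cells, against 163 and 109 CPM in controls (-0.23 ± 0.216), and RPA2 had 61.4 and 62.2 CPM in resistant cells, against 70.9 and 56.2 CPM in controls (-0.04 ± 0.177). Of the summed RPKM of the 3 subunits, RPA2 took 50.9% and 52.5% in resistant cells, against 43.7% and 49.5% in controls.

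Nucleotide supply was the class with the lowest median fold change (-0.77), and its 3 genes were each lower in both resistant libraries than in both controls. Over all genes tested, 22.2% were lower in this way. Control replicate 1 was the highest library for all 3. RRM2, the small, radical-bearing subunit of ribonucleotide reductase, had 120 and 96.5 CPM in resistant replicates 1 and 2, against 263 and 162 CPM in control replicates 1 and 2. Control replicate 2 was 1.35 times resistant replicate 1, its nearest neighbour. The log2 fold change was -0.97 ± 0.255, or 1.96-fold lower in resistant cells (unadjusted p = 0.00548, edgeR adjusted p = 0.135, 95% interval -1.56 to -0.38). DESeq2 gave an adjusted p of 0.0126 for the same gene. With each library left out in turn, its log2 fold change lay between -1.28 without control replicate 2 and -0.58 without control replicate 1. Each of those fits leaves 1 library in a group. RRM1, the catalytic subunit, had 66.6 and 80.9 CPM in resistant cells, against 140 and 85.5 CPM in controls (-0.61 ± 0.249, unadjusted p = 0.0412, edgeR adjusted p = 0.341). Its value in control replicate 2 lay near that of resistant replicate 2, and the fold change was -0.21 without control replicate 1. TYMS, the thymidylate synthase, had 28.1 and 24.1 CPM in resistant cells, against 58.1 and 30.8 CPM in controls (-0.77 ± 0.291, unadjusted p = 0.0311, edgeR adjusted p = 0.301), and -0.24 without control replicate 1. Of the exonic bases of TYMS 47.9% overlap exons of ENOSF1 or TYMSOS on the opposite strand, where reads were not counted. TYMS also lies on a stretch of chromosome 18 where the 24 expressed genes within 5 Mb had a median of -0.28, whereas the 33 neighbours of RRM2 on chromosome 2 had a median of 0.04. What the position contributes was not tested. RRM2 lies at chr2:10120698-10211725 on the plus strand (GRCh38, gene span of GENCODE 42), with no exonic overlap with another gene. Per kilobase of exon RRM2 stood at 0.834 and 0.552 of RRM1 in resistant cells and at 0.872 and 0.874 in controls. These ratios depend on the annotated exon length (9153 bases for RRM2 and 4233 bases for RRM1). In CPM, RRM2 was above RRM1 in every library.

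**Figure D4:**
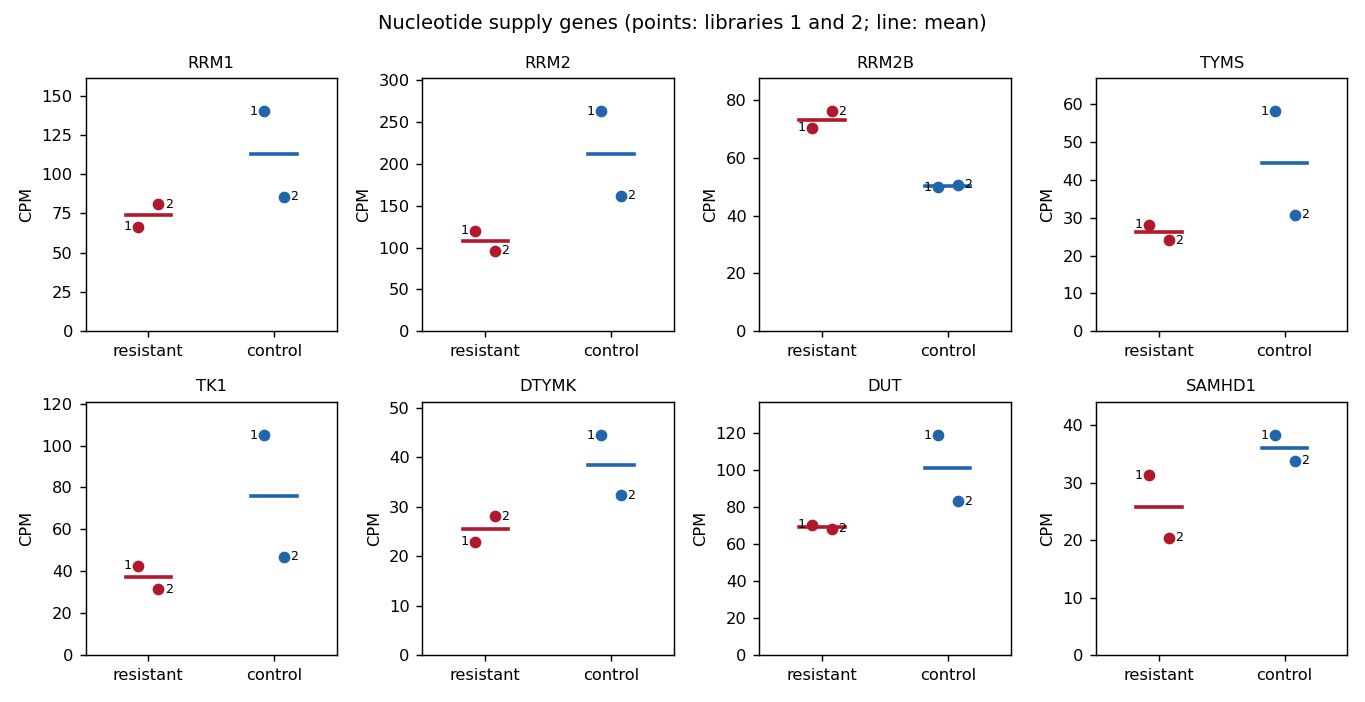
CPM of 8 genes of nucleotide supply or breakdown in each library, with resistant cells at the left and controls at the right (points numbered by replicate, line at the mean, axes starting at 0). RRM2B is higher in both resistant libraries, and the other 7 genes are lower in both. Over all genes tested, 22.4% were higher and 22.2% lower in this way. DTYMK, DUT and SAMHD1 were added after their values were seen.

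Other genes of DNA replication were taken from a list of 40 partners, chosen with earlier results of these data known, of which 39 were tested. None passed the edgeR test over all genes, 9 had an unadjusted p below 0.05 and a negative sign, 1 had an unadjusted p below 0.05 and a positive sign, and the median fold change was -0.28. The background shares are the 7.32% lower and 6.14% higher given above. DESeq2 called 1 of them lower, TOP2A. TOP2A, the topoisomerase that untangles sister chromatids before mitosis, had 80.9 and 103 CPM in resistant replicates 1 and 2, against 282 and 166 CPM in control replicates 1 and 2 (-1.28 ± 0.270, edgeR adjusted p = 0.0778). Several partners act in nucleotide supply. TK1, the thymidine kinase of S phase, had 42.6 and 31.4 CPM in resistant cells, against 105 and 46.8 CPM in controls (-1.04 ± 0.356, edgeR adjusted p = 0.247), and its fold change was -0.34 without control replicate 1. The thymidylate kinase gene DTYMK (-0.59, edgeR adjusted p = 0.284) and the dUTPase gene DUT (-0.54, edgeR adjusted p = 0.296) were named after their values were seen. They also had both resistant libraries below both controls, as 22.2% of all genes tested did. Control replicate 1 was the highest library for DTYMK and for DUT. RRM2B, which encodes a form of the small reductase subunit that is induced by p53 and serves resting cells, had 70.3 and 76.0 CPM in resistant replicates 1 and 2, against 49.8 and 50.7 CPM in control replicates 1 and 2. Both resistant libraries were higher, by 0.54 ± 0.159 on the log2 scale (unadjusted p = 0.00969, edgeR adjusted p = 0.175), and the value stayed between 0.49 and 0.61 with 1 library left out. ASF1B, a histone chaperone gene of dividing cells, had 31.6 and 19.0 CPM in resistant cells, against 67.9 and 35.4 CPM in controls (-1.03 ± 0.346), and TIMELESS, of the fork protection complex, had 47.8 and 39.0 CPM in resistant cells, against 86.5 and 55.5 CPM in controls (-0.71 ± 0.239). Control replicate 1 was the highest library for both genes, and without it the log2 fold change was -0.49 for ASF1B and -0.36 for TIMELESS. CDC7, the kinase that fires origins, had 11.3 and 10.6 CPM in resistant cells, against 15.3 and 11.4 CPM in controls (-0.28 ± 0.228, edgeR adjusted p = 0.676). CLSPN, a checkpoint adaptor of the fork, had 23.1 and 11.1 CPM in resistant cells, against 26.7 and 15.3 CPM in controls (-0.29 ± 0.381, edgeR adjusted p = 0.818), in the order of libraries seen for the helicase genes.

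Cell cycle genes that are not replication genes gave the setting. MKI67, a proliferation marker, had 88.3 and 107 CPM in resistant cells, against 277 and 171 CPM in controls, CCNB1, the mitotic cyclin, had 35.2 and 68.4 CPM in resistant cells, against 226 and 89.8 CPM in controls, and E2F1 had 53.8 and 20.2 CPM in resistant cells, against 54.8 and 43.9 CPM in controls. E2F1 was higher in resistant replicate 1 than in resistant replicate 2, as the helicase genes were, whereas CCNB1 and MKI67 were higher in resistant replicate 2. Their part in the values of the replication genes was not tested. Among the replication genes, the 20 with E2F letters in the promoter window had a median log2 fold change of -0.29 (range -0.77 to 0.20), and the 21 without had one of -0.27 (range -0.97 to 0.19). RRM2, with the lowest fold change, had no such letters in its window and 3 CCAAT boxes. Its window starts at chr2:10122489, inside the gene span that starts at chr2:10120698. The search took exact letters only, so windows without them may hold other forms of the site. What E2F control contributes to the fold changes was not tested.

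The 2 genes of chromatin and histone mRNA had a median of -0.35. UHRF1, which recruits the maintenance DNA methyltransferase to newly copied DNA, had 94.7 and 74.7 CPM in resistant cells, against 125 and 91.5 CPM in controls (-0.35 ± 0.212, edgeR adjusted p = 0.548). SLBP, which binds the stem-loop of replication-dependent histone mRNAs, had 65.9 and 49.0 CPM in resistant cells, against 86.7 and 58.6 CPM in controls (-0.34 ± 0.238). In each of these genes control replicate 1 was highest and resistant replicate 2 lowest.

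**Figure D5:**
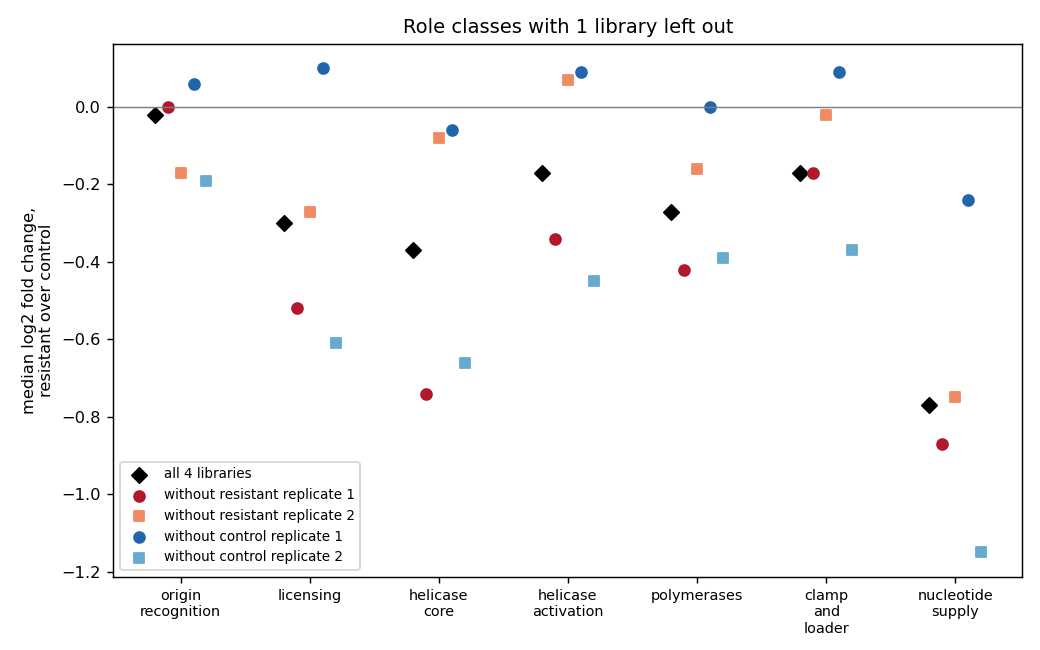
Median log2 fold change, resistant over control, of 7 role classes with all 4 libraries (diamonds) and with each library left out. Without control replicate 1 the medians of 6 classes lie between -0.06 and 0.10, while nucleotide supply is at -0.24.

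The negative median depended on single libraries. Without control replicate 1, 23 genes had a negative and 24 a positive fold change, and the median of all 47 was 0.00, against -0.48 without control replicate 2. Without resistant replicate 2 the median of all 47 was -0.12 and that of the helicase core -0.08, and without resistant replicate 1 they were -0.43 and -0.74. By class, the medians without control replicate 1 were 0.06 for ORC, 0.10 for licensing, -0.06 for the helicase core, 0.09 for its activators, 0.00 for polymerases and -0.24 for nucleotide supply. The difference between classes was not tested, since genes of a class are not replicates of a condition.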

How the data were processed

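Genes were counted in 4 libraries of polyA-selected, strand-specific, paired-end RNA-seq, per the labels' protocols. The authors deposited raw counts per gene, made per the file headers with featureCounts 2.0.0 and GENCODE 42 on duplicate-marked alignments, with no other option set. By that program's defaults strand was ignored, mates were counted singly, and reads of several places or genes were left out, so a gene and its antisense partner cannot be told apart. STAR and GRCh38 are named in the submitters' processing notes. Exonic overlap with other genes was highest in TYMS (47.9%), POLA2 (40.0%), MCM8 (33.3%) and MCM2 (23.6%).

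Symbols matched 62625 of 62649 genes. Genes were filtered with filterByExpr, scaled by TMM and compared by the quasi-likelihood test of edgeR 4.0.16 (R 4.3.3), group as sole term, two-sided, Benjamini-Hochberg adjusted over all 24961 genes. The test moderates the spread of each gene toward that of all genes, with 2 residual and 5.69 prior degrees of freedom. SE is the log2 fold change over the root of F, and the 95% intervals use the same degrees of freedom. Alternatives used limma 3.58.1 and DESeq2 1.42.0. A count of 3 is 0.0422 and 0.0363 CPM in resistant and 0.0419 and 0.0346 CPM in control libraries (counting error only). Control replicate 1 held no odd count, so a count of 3 does not occur there and its value is a scale only. Both replicate pairs differed by more than counting noise (chi-square over its degrees of freedom, 63.1 resistant and 118 control). Genes, roles and lists were chosen with earlier results of these data known. Values in every library are given for genes with an unadjusted p below 0.05, the extremes of each class and 16 fixed genes, and up to 6 partners by p with 5 fixed ones. A partner gene that this rule names is not reported here. Other genes are given by fold change or were named after their values were seen. The fit was tested on simulated data, where it missed most changes of 2-fold and recovered most changes of 4-fold. Resistant files carry sample numbers other than those of the labels and were assigned by GEO's record. A further table of fold changes without a header was not used.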

Additional observations from a re-analysis of the deposited data

How the results depend on the processing

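No replication gene was called higher in any alternative. Of those called lower, there were 3 without the filter on low counts (RRM2, TYMS and CDT1), 1 with DESeq2 (RRM2) and 0 to 7 with 1 library left out, the 7 without control replicate 2, and 0 in the others. The count at an unadjusted p below 0.05 was 12 without the filter, 10 with the replicate block and 1 to 21 with 1 library left out, all lower in resistant cells. Partner genes called lower numbered 5 without the filter, 1 with DESeq2 and 0 to 9 with 1 library left out. Over all genes, 905 higher and 961 lower were called without the filter, 628 and 705 with DESeq2, and 33 and 31 with the replicate block. With 1 library left out, 7 to 1146 were called higher and 9 to 1020 lower, fewest without resistant replicate 2 and most without control replicate 2. By the unadjusted edgeR p, 3360 of 24961 genes were below 0.05 in the main fit, both directions together. The number was 4736 of 44966 without the filter and 3028 of 24961 with the replicate block. With 1 library left out, the number over all genes also changed and was highest without control replicate 2. The rise to 21 replication genes in that fit was therefore not confined to them. The cause of these differences was not tested. Replicate numbers are not said to mark a shared batch, so the replicate block is no part of the design. The differences of replicate 1 and 2 correlated at -0.0131 between the groups over 11643 genes. That value covers all these genes and cannot show whether the replication genes share a replicate effect. In 32 of the 47 both replicates 1 lay above both replicates 2, and the cause was not tested. For the replication genes the replicate block gave the same number of positive and negative signs (39 negative).

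With 1 library left out, medians ranged from -0.48 to 0.00 for all 47 genes, -0.19 to 0.06 for origin recognition, -0.61 to 0.10 for licensing, -0.74 to -0.06 for the helicase core, -0.45 to 0.09 for its activators, -0.42 to 0.00 for polymerases, -0.37 to 0.09 for clamp and loader, -1.15 to -0.24 for nucleotide supply and -0.40 to -0.11 for the partners. Signs of single genes turned with 1 library left out, in ranges of -0.61 to 0.10 for GMNN, -0.51 to 0.10 for PCNA, -0.26 to 0.16 for FEN1, -0.49 to 0.08 for RPA1, -0.20 to 0.14 for RPA2, -0.91 to 0.16 for CLSPN, -0.52 to 0.62 for CDC6, -0.22 to 0.37 for POLA1, -0.09 to 0.17 for RFC1 and -0.12 to 0.36 for ORC5. This list covers the genes chosen by the naming rule, and others turned as well. Among those, MCM4 (0.01), MCM6 (0.18) and GINS4 (0.40) were positive without control replicate 1. Of the genes chosen by the rule, upper quartile factors turned RPA2 (0.01). Halving control replicate 1 left 0 replication genes called and their median at -0.27. The median over all genes was 0.048 with upper quartile factors and nearer zero with every other alternative.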
